A study of Homo sapiens with 6 samples.

Results

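The expression of the genes that copy DNA and guard the replication fork was examined in MDA-MB-231 cells treated with EC-70124. The genes were taken from a list of 58 symbols, matched to the annotation of the array, and run from the proteins that mark replication origins to the E2F factors that control much of this machinery. Of these, 57 were measured among 18417 genes in all. ATRIP, the partner of the kinase ATR, was left out because its probe set also carries the symbol TREX1. MDA-MB-231 is an established human triple negative breast cancer line, and EC-70124 is an indolocarbazole that inhibits several kinases. Total RNA was taken from 3 untreated samples and from 3 that received 500 nM EC-70124 for 24 h, and each sample was read on 1 Affymetrix Human Gene ST array. The labels call the first group control and name no vehicle. Both groups are the same single line grown in the same medium, at 1 dose and 1 time, so the comparison asks how the mRNA of these genes differed between treated and untreated cells of this line.

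Replication starts when the origin recognition complex (ORC), with CDC6 and CDT1, loads the MCM2-7 ring on DNA in G1. Kinases then recruit CDC45 and the GINS complex to turn the ring into an active helicase, polymerases and the PCNA clamp copy the strands behind it, and the RPA complex coats the exposed single strands. When a fork stalls, ATR and its mediators signal to CHEK1, and many of the genes for these proteins are E2F targets that are transcribed as cells enter S phase. Since RNA came from whole cultures, fewer cells in a cell cycle phase and less RNA per cell cannot be told apart.

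Median intensities were close, but every EC-70124 array (450.6 to 460.1) had a higher median than every untreated array (437.2 to 444.1). Arrays of 1 group correlated more closely (r = 0.993 to 0.998 over genes) than arrays of different groups (0.973 to 0.980). Markers of the line were bright in the untreated arrays, with mean intensities of 13827 for VIM and 10098 for CD44, and the hormone receptor genes ESR1 (225) and PGR (166) were dim. Of the same list of luminal and receptor genes, ERBB2 (1486) and FOXA1 (893) were brighter. After treatment 4 of the 5 markers of the line were lower and 2 of 7 luminal and receptor genes higher. Of 9 leukocyte and endothelial markers measured, 0 passed the limma test at an adjusted p threshold of 0.05 and 1, ITGAM, had an unadjusted p under 0.05, with group means from 95.1 to 672 over the 9. Intensities are the linear expression indices of the deposited table, and differences are EC-70124 minus untreated on the log2 scale, so that 1 is a doubling. The number of arrays, 3 in each group, limits the precision, and p-values set each difference against the spread of the arrays within groups.

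Treatment changed many replication genes by small amounts and in both directions. Of the 57 measured, 16 were higher and 10 lower after EC-70124 (limma, adjusted p under 0.05), and 31 did not pass the test. Over all genes the shares were 19.7% higher and 14.8% lower, 34.5% in either direction, against 28.1%, 17.5% and 45.6% of the replication genes. All genes include many dim ones. Without the dimmest 30%, 17 of 56 replication genes were higher and 10 lower, against 3446 and 2702 of 12892 genes. The share called in either direction was then nearly the same for both. The differences ran from -0.47 for CHEK2 to 0.97 for TIPIN, with a median of 0.13 against -0.0045 over all genes. With other scalings both medians were lower. They were 0.05 and -0.05 after quantile normalization, 0.08 and -0.02 after cyclic loess, and 0.06 and -0.07 after centring each array on its median. No replication gene reached a 2-fold change, and 497 of all 18417 genes did so with an adjusted p under 0.05 (limma). Groups did not overlap for 33 of the 57, and for 8769 of all genes. The balance of the calls depended on the scaling of the arrays. After quantile normalization 8 replication genes were higher and 12 lower, and after centring each array on its median 9 and 12. Of the 18417 genes, 3112 were higher and 3527 lower after quantile normalization, and 3015 and 3942 after centring. In both settings the share of genes called was no larger among the replication genes than over all genes. Over all genes the higher calls then made up 46.9% and 43.3% of the calls, against 57.2% with the scaling of the authors. Of the called genes, 8 higher (ORC4, ORC5, CDC6, PRIM1, RFC2, TIPIN, CLSPN and RBL1) and 5 lower (ORC3, GINS1, RPA3, CHEK2 and E2F7) kept their calls in all 14 alternatives fitted with limma.

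**Figure D1:**
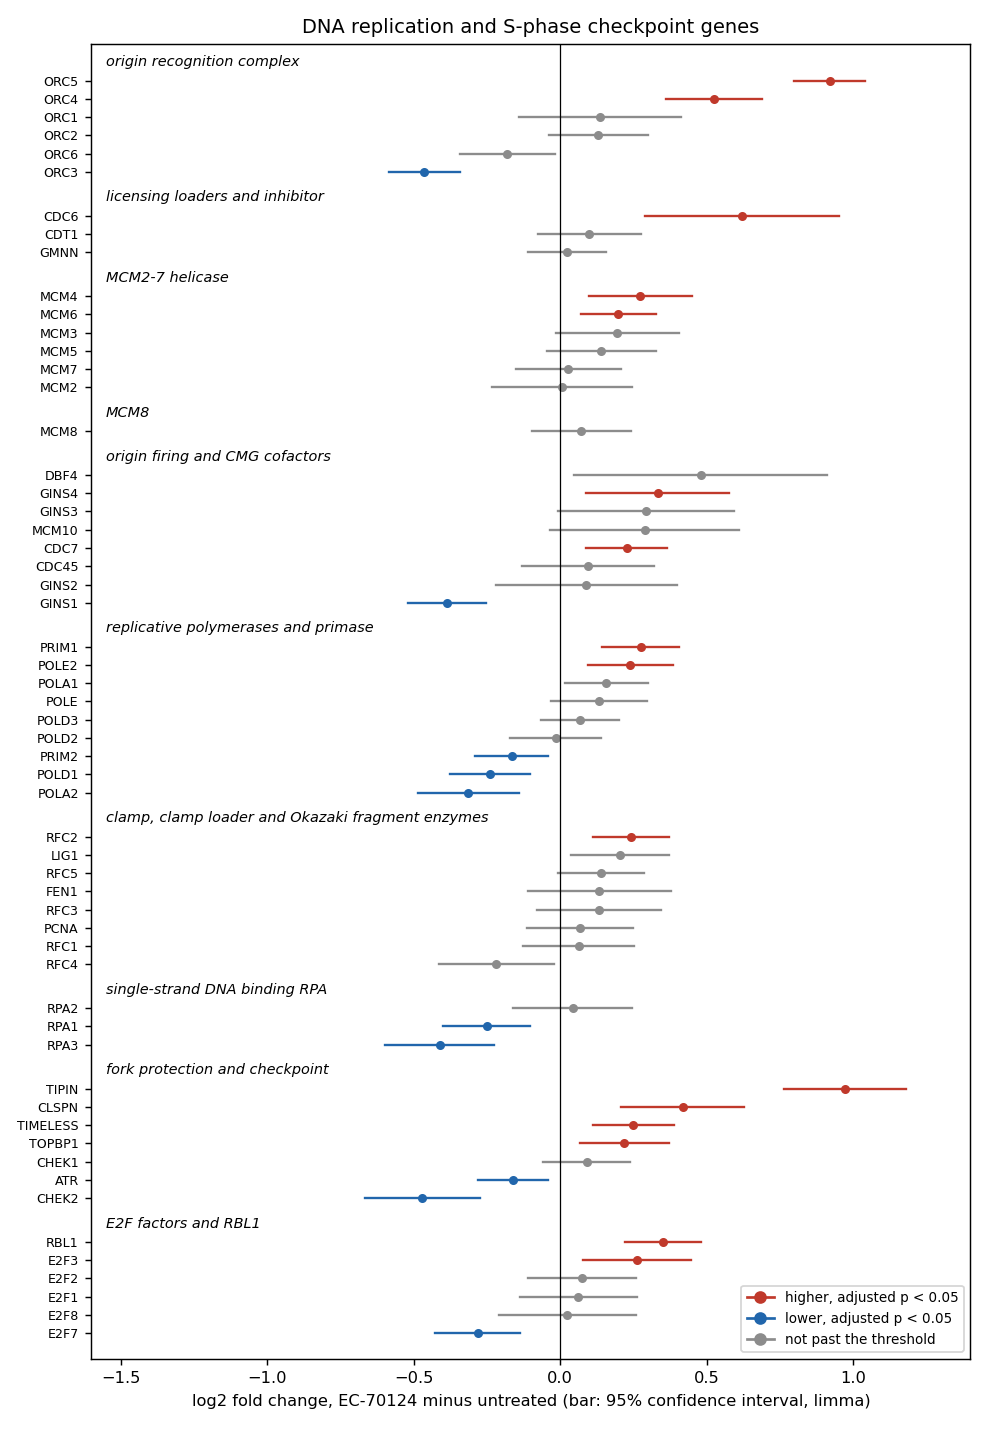
Log2 difference, EC-70124 minus untreated, for the 57 measured replication genes grouped by role, with the 95% confidence interval from limma as a bar and the call as the colour. Calls in both directions occur in the origin recognition, origin firing, polymerase, checkpoint and E2F groups, and the differences run from -0.47 for CHEK2 to 0.97 for TIPIN.

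**Figure D2:**
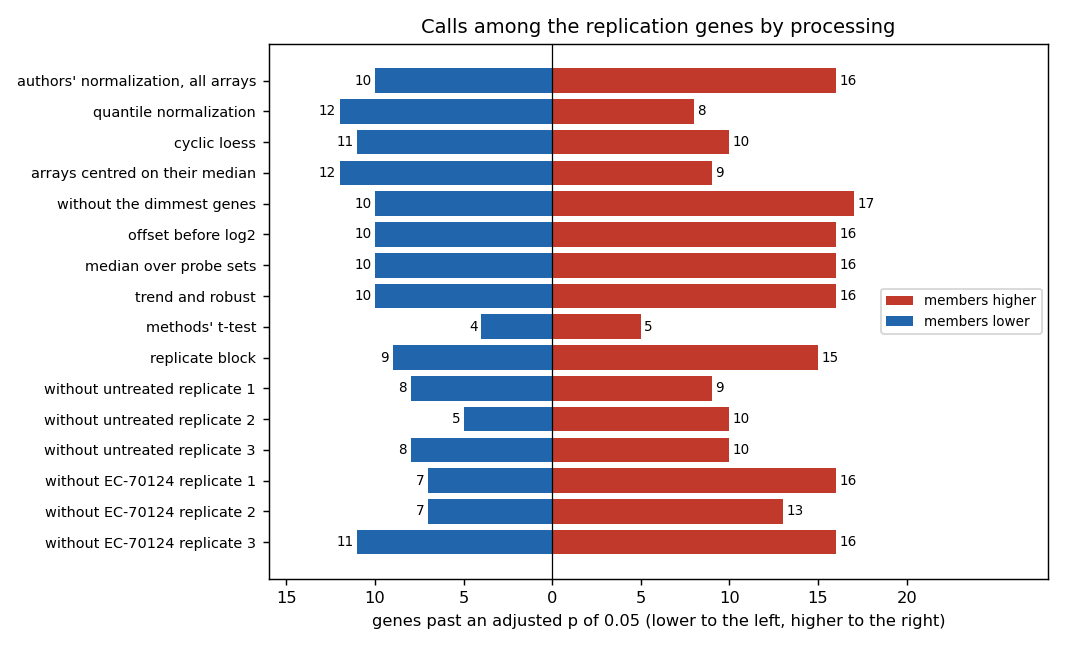
Number of replication genes called higher and lower (adjusted p under 0.05) under the reported setting and each alternative. The higher calls go from 16 to 8 after quantile normalization while the lower calls go from 10 to 12.

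E2F factors bind short GC-rich sites near gene starts, so the promoter sequences of the replication genes were read from RefSeq (GRCh38.p14), from 250 bases before to 50 bases after each gene start. A window was held for 50 of the 57 genes. The E2F letters TTTCCCGC, TTTCGCGC, TTTGCCGC or TTTGGCGC, on either strand, were present in 24 of the 50 (48%), against 3.33% of 27305 windows in the table and 4.52% of the 14239 windows of genes measured here. The cell cycle homology region, TTTGAA on either strand, was present in 2 of the 50 (4%), against 15.4% of all windows and 11.9% of those of genes measured here. The median GC content was 64.2% in the windows of the replication genes and 63.0% in those of genes measured here. The E2F letters were present in 7 of 14 genes with a higher call, 3 of 9 with a lower call and 14 of 27 with none. The median difference was 0.13 for the 24 genes with the letters and 0.11 for the 26 without. A match is a description of the letters and not a measured binding site.

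The 120 bases before the gene start are given for 6 genes, 5′ to 3′, with E2F letters in capitals. TIPIN (chr15:66386718-66386837, minus strand) and ORC5 (chr7:104208014-104208133, minus strand) had the largest rises and hold no match. RBL1 (chr20:37095998-37096117, minus strand) and MCM6 (chr2:135876444-135876563, minus strand) also rose and hold 2 matches each, which overlap in MCM6. ORC3 (chr6:87590015-87590134, plus strand) and POLA2 (chr11:65261842-65261961, plus strand) fell and hold 1 match each in these bases. The 6 genes are examples and not a ranking. Of other genes with a call, CDC6 and GINS1 also hold 1 match each in the searched window, and ORC4 holds none.
TIPIN: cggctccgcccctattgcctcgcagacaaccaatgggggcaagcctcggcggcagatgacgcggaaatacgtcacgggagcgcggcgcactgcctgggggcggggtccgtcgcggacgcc
ORC5: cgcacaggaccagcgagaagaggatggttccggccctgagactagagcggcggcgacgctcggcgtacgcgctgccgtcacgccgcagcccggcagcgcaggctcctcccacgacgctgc
RBL1: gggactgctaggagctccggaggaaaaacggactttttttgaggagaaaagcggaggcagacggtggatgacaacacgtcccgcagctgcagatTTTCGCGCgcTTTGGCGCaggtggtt
MCM6: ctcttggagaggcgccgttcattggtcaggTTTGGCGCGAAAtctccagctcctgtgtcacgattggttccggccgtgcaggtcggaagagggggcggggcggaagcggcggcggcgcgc
ORC3: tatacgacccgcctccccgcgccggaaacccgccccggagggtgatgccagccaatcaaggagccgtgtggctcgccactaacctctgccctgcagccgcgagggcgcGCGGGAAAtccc
POLA2: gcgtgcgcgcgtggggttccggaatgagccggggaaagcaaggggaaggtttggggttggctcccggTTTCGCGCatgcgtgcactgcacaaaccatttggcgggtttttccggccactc

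Within the origin recognition complex, the 6-subunit platform that marks origins, subunits moved in opposite directions. ORC5 had intensities of 2202, 2281 and 2268 without treatment and 4284, 4350 and 4141 with EC-70124. All treated arrays were far above all untreated arrays, a 1.89-fold rise (log2 fold change 0.92, SE 0.05, adjusted p = 1.25e-05). ORC4, another ATPase-fold subunit, read 1594, 1633 and 1717 untreated and 2564, 2368 and 2193 treated. It rose 1.44-fold with no overlap of the groups (log2 fold change 0.52, SE 0.07, adjusted p = 0.0007). ORC3 read 2351, 2420 and 2466 untreated and 1779, 1755 and 1714 treated. It was lower in every treated array, 1.38-fold in the mean (log2 fold change -0.46, SE 0.05, adjusted p = 0.000274), and its promoter window holds an E2F match as shown above. The other subunits did not pass the test. ORC1, the subunit that varies most with the cell cycle, differed by 0.14, adjusted p = 0.437, and ORC2 by 0.13, adjusted p = 0.218. ORC6 differed by -0.18, adjusted p = 0.0847, and it passed the threshold without EC-70124 replicate 3 (adjusted p = 0.00677) and after quantile normalization (0.0294). ORC2 also passed without that array (0.0332).

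Among the loading factors, CDC6, the ATPase that brings the MCM ring to ORC, rose. It read 1391, 1353 and 1570 untreated and 1808, 2144 and 2768 treated. Every treated array was above every untreated one, and replicate 3 was well above the other treated arrays, so that the means were 1438 ± 116 and 2240 ± 487 (SD, n = 3 each). The rise was 1.54-fold (log2 fold change 0.62, SE 0.14, adjusted p = 0.0105, 95% interval 0.29 to 0.95). CDT1, the partner of CDC6 in loading, differed by 0.10, adjusted p = 0.374, and GMNN, which encodes the CDT1 inhibitor geminin, by 0.02, adjusted p = 0.803.

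Of the 6 subunits of the MCM2-7 helicase ring, 2 rose, and the others had small positive differences with the scaling of the authors, of which that of MCM2 was negative after quantile normalization (-0.07), cyclic loess (-0.04) and centring (-0.06) and that of MCM7 after centring (-0.04). MCM4 read 2495, 2395 and 2484 untreated and 2713, 2943 and 3284 treated, a 1.21-fold rise with no overlap of the groups (log2 fold change 0.27, SE 0.08, adjusted p = 0.0238). MCM6 rose 1.15-fold (log2 fold change 0.20, SE 0.06, adjusted p = 0.0251). Both calls were lost after quantile normalization (adjusted p = 0.0733 for MCM4 and 0.108 for MCM6) and when any 1 untreated array or EC-70124 replicate 2 was left out (0.052 to 0.0895). For MCM2 the 95% interval of the difference was -0.23 to 0.24, for MCM3 -0.02 to 0.40, for MCM5 -0.05 to 0.33 and for MCM7 -0.15 to 0.21. MCM2 read 2090, 2122 and 1993 untreated and 1861, 1946 and 2468 treated. Replicate 3 was the highest of the 6 arrays and the other treated arrays were the lowest. MCM8, a related helicase of recombination repair outside the ring, read 4670, 4925 and 4827 untreated and 4594, 5132 and 5473 treated (0.07, adjusted p = 0.509), and its groups overlapped.

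Of 8 genes that fire origins or complete the CMG helicase (CDC45, MCM2-7 and GINS), 2 rose and 1 fell. GINS1 and GINS4 encode subunits of the same 4-protein complex. GINS1 read 3372, 3351 and 3469 untreated and 2465, 2702 and 2632 treated. All treated arrays were below all untreated arrays, 1.31-fold in the mean (log2 fold change -0.39, SE 0.06, adjusted p = 0.00114). GINS4 read 573, 592 and 554 untreated and 635, 689 and 858 treated. It rose 1.26-fold with no overlap (log2 fold change 0.33, SE 0.11, adjusted p = 0.0419), and replicate 3 was the highest. CDC7, the kinase that phosphorylates the MCM ring, rose 1.17-fold (0.23, adjusted p = 0.0192). After quantile normalization the adjusted p of GINS4 was 0.102 and that of CDC7 0.108. The call of GINS4 was lost without any 1 untreated array or without EC-70124 replicate 2 (0.0658 to 0.117), and that of CDC7 without untreated replicate 1 (0.066), untreated replicate 2 (0.0709) or EC-70124 replicate 2 (0.0504). DBF4, the activating subunit of CDC7, was dim, with intensities of 91.6, 66.6 and 51.7 untreated and 104, 84.4 and 96.9 treated. Its groups overlapped (0.48, adjusted p = 0.0864), and it passed the threshold without untreated replicate 1 (0.00868). CDC45 differed by 0.10, adjusted p = 0.508, GINS2 by 0.09, adjusted p = 0.661, and MCM10, which helps to activate the helicase, by 0.29, adjusted p = 0.161. GINS3 differed by 0.29, adjusted p = 0.124 and passed without EC-70124 replicate 1 (0.0487).

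**Figure D3:**
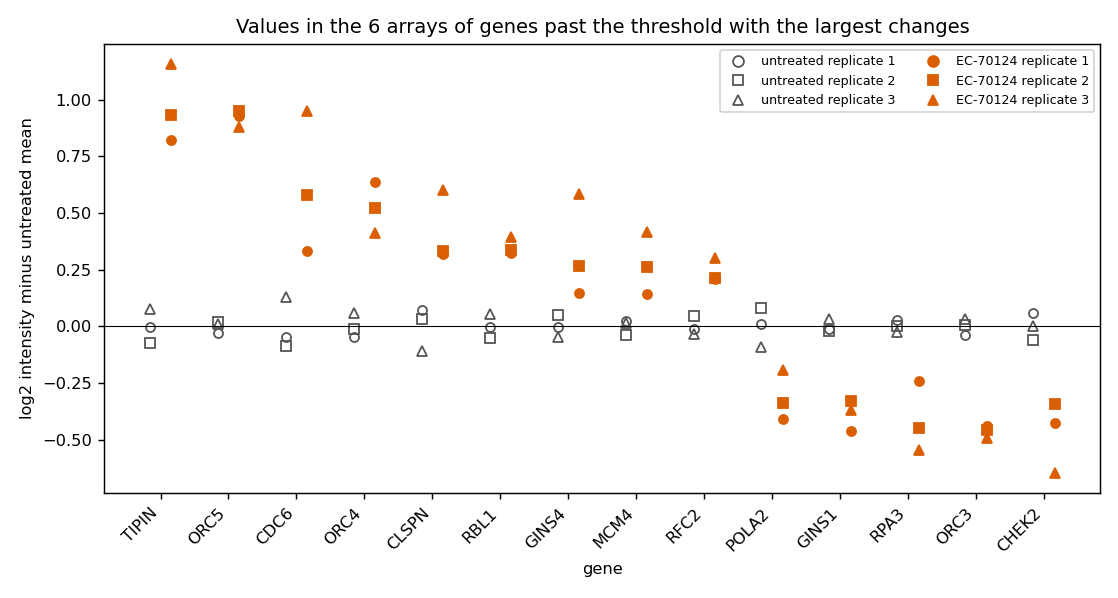
Log2 intensity minus the untreated mean in each of the 6 arrays, for the 12 replication genes with the largest changes among those past the threshold and for MCM4 and RFC2, with open grey symbols for untreated and filled orange symbols for EC-70124 arrays and a shape for each replicate number. The genes were selected by the test, so the groups do not overlap in the plot, and DBF4, which had a larger difference than many of them but did not pass, is left out. TIPIN and ORC5 lie farthest above 0.

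The polymerases showed small changes, none above 1.24-fold among the 5 of 9 genes that passed. Polymerase alpha with primase starts each new strand, and its subunits moved in both directions. POLA2, the accessory subunit, read 1332, 1399 and 1241 untreated and 997, 1045 and 1156 treated. It was lower in every treated array (log2 fold change -0.31, SE 0.08, adjusted p = 0.0124). PRIM1, the catalytic primase subunit, rose 1.21-fold (log2 fold change 0.27, SE 0.06, adjusted p = 0.00635), and PRIM2, the regulatory one, fell 1.12-fold (log2 fold change -0.17, SE 0.05, adjusted p = 0.044). POLD1, the catalytic subunit of the lagging strand polymerase delta, fell (-0.24, adjusted p = 0.0134). POLE2, a subunit of the leading strand polymerase epsilon, rose (0.24, adjusted p = 0.0184). Without untreated replicate 2 the adjusted p was 0.0515 for POLA2 and 0.0556 for POLD1. The call of POLE2 was lost without untreated replicate 1 (0.0529) or 3 (0.0637) and after quantile normalization (0.0804). PRIM2 lost its call without any 1 array other than EC-70124 replicate 3 (0.077 to 0.135). POLA1, POLD2, POLD3 and POLE did not pass, with differences from -0.02 to 0.16.

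Behind the polymerases, 1 of 8 clamp, clamp loader and Okazaki fragment genes passed the test. RFC2, a subunit of the loader that opens PCNA, read 5064, 5280 and 4988 untreated and 5903, 5920 and 6292 treated. The groups did not overlap and the rise was 1.18-fold (log2 fold change 0.24, SE 0.06, adjusted p = 0.011). PCNA itself read 3133, 3012 and 3163 untreated and 3049, 3088 and 3646 treated. Only replicate 3 stood above the untreated arrays, and the 95% interval of its difference was -0.11 to 0.25. RFC4 had the lowest difference of the role (-0.22, adjusted p = 0.0852), and it passed after quantile normalization (0.0395) and without untreated replicate 1 (0.0482). LIG1, the ligase that joins Okazaki fragments, differed by 0.21, adjusted p = 0.0614 and passed without EC-70124 replicate 2 (0.0486). RFC1, RFC3, RFC5 and the flap nuclease FEN1 did not pass, with differences from 0.06 to 0.14.

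Of the 3 genes of the single-strand binding complex RPA, 2 fell and none passed the test upward. RPA3, the smallest subunit, read 1487, 1460 and 1434 untreated and 1234, 1071 and 1002 treated. It was 1.33-fold lower with no overlap (log2 fold change -0.41, SE 0.08, adjusted p = 0.00471). RPA1, the large DNA-binding subunit, fell 1.19-fold (log2 fold change -0.25, SE 0.06, adjusted p = 0.0169), and its call was lost without untreated replicate 1 (adjusted p = 0.0705) or 2 (0.0553) or EC-70124 replicate 1 (0.0588) or 2 (0.0535). RPA2 differed by 0.04, adjusted p = 0.758.

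The fork protection and checkpoint genes held both extremes of the list, with 4 of 7 higher and 2 lower. TIPIN, which with TIMELESS forms the fork protection complex, read 812, 772 and 857 untreated and 1438, 1552 and 1810 treated. The means were 813 ± 42.3 and 1600 ± 191 (SD, n = 3 each), and every treated array was far above the untreated ones. The change was 1.96-fold (log2 fold change 0.97, SE 0.09, adjusted p = 0.000105, 95% interval 0.76 to 1.18). TIMELESS rose by less, 1.19-fold (log2 fold change 0.25, SE 0.06, adjusted p = 0.0123), and its adjusted p was 0.0632 after quantile normalization and 0.0546 without untreated replicate 1. CLSPN encodes claspin, the mediator that brings CHEK1 to ATR, and read 901, 875 and 794 untreated and 1066, 1077 and 1299 treated. It rose 1.34-fold with no overlap (log2 fold change 0.42, SE 0.09, adjusted p = 0.00771), and a second, dimmer probe set of CLSPN differed by 0.24 without passing (adjusted p = 0.262 over probe sets). CHEK2, the effector kinase of the ATM branch, read 762, 701 and 732 untreated and 545, 577 and 468 treated. It was lower in every treated array, 1.39-fold in the mean (log2 fold change -0.47, SE 0.08, adjusted p = 0.00306). CHEK1, the effector of the ATR branch, differed by 0.09, adjusted p = 0.345.

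TOPBP1, which activates ATR and is also needed for origin firing, rose 1.16-fold (0.22, adjusted p = 0.0342), and ATR fell 1.12-fold (-0.16, adjusted p = 0.0432). Both calls were narrow. That of TOPBP1 was lost after quantile normalization (0.0811) and without untreated replicate 1 (0.114), 2 (0.0608) or 3 (0.0887), and that of ATR without any 1 array other than EC-70124 replicate 3 (0.0563 to 0.134).

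Of the transcription factors upstream of these genes, 2 rose and 1 fell. RBL1 encodes p107, a pocket protein that holds E2F factors in repressive complexes, and read 1187, 1145 and 1232 untreated and 1484, 1502 and 1558 treated. All treated arrays were above all untreated arrays, 1.28-fold in the mean (log2 fold change 0.35, SE 0.06, adjusted p = 0.0016), and its promoter window holds 2 E2F matches as shown above. E2F7, an atypical E2F that represses, fell 1.22-fold (log2 fold change -0.28, SE 0.06, adjusted p = 0.00875). E2F3, an activator, rose 1.2-fold (0.26, adjusted p = 0.0353), but not after quantile normalization (0.18) nor without any 1 array other than EC-70124 replicate 2 (0.0552 to 0.0987). E2F1 differed by 0.06, adjusted p = 0.635, E2F2 by 0.08, adjusted p = 0.53 and E2F8 by 0.02, adjusted p = 0.889.

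The ratio within each array was computed for 7 pairs of partners. Of these, 6 lie within a complex or protein pair, and CHEK1 with CHEK2 are the effectors of the checkpoint branches. A single scale factor per array cancels in such a ratio, but a scaling that varies with intensity does not. The pairs were chosen after their values were seen, because their members differed, so the ratios only describe the size of the differences and their separation between the groups was fixed by the choice. The log2 ratio of ORC5 to ORC3, set to a mean of 0 in the untreated arrays, was 1.37, 1.41 and 1.37 in the treated arrays. The shift was thus larger than that of either gene alone and hardly varied between arrays (1.38, SE 0.02). ORC4 against ORC3 shifted by 0.99 (SE 0.05). TIPIN against TIMELESS shifted by 0.72 (SE 0.08), with TIPIN the gene that rose more. GINS4 against GINS1 also shifted by 0.72 (SE 0.12), and replicate 3 (0.95) stood above replicates 1 and 2 (0.61 and 0.60). PRIM1 against PRIM2 shifted by 0.44 (SE 0.03), RPA2 against RPA3 by 0.45 (SE 0.15) and CHEK1 against CHEK2 by 0.56 (SE 0.13).

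**Figure D4:**
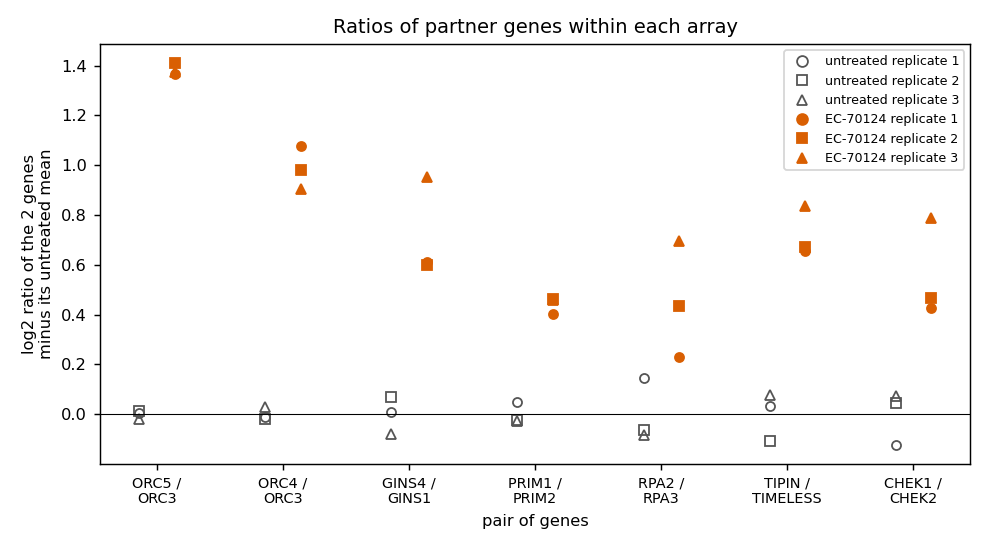
Log2 ratio of the intensities of 7 pairs of partner genes within each array, relative to the untreated mean of the pair, with 1 point for each array. The pairs were chosen because their members differed. The widest shift is that of ORC5 against ORC3 (1.38), and GINS4 against GINS1 varies more between the treated arrays.

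Many replication genes were highest in EC-70124 replicate 3. The excess of this array over the mean of treated replicates 1 and 2 had a median of 0.16 on the log2 scale over the 57 genes, against -0.01 over all genes. It was the highest treated array for 45 of the 57 (78.9%), against 36.3% of all genes, and the highest of all 6 arrays for 38 (66.7%), against 20.1%. Most lists of related genes, given by function below, also had high shares. Replicate 3 was the highest treated array for 74.2% of 31 other replication factors and 85.7% of 7 deoxynucleotide genes. The shares were 75% of 4 S-phase cyclin and kinase genes and 64.3% of 14 E2F partners. For 19 other checkpoint factors the share was 31.6%, below that of all genes. The pattern was marked in the MCM2-7 ring, where it was the highest of the 6 arrays for 6 of 6 genes (median excess 0.24), and in the origin firing genes (0.36). The median excess was -0.05 in the origin recognition complex and 0.01 in the 10 lower genes. The largest excesses were those of MCM10 (0.54), CDC6 (0.49), GINS3 (0.48), GINS2 (0.44) and ORC1 (0.44). Genes with the E2F letters had a median excess of 0.18 and those without 0.10. MCM10 read 1816, 1981 and 1931 untreated and 2102, 2008 and 2992 treated, so the distance to the untreated arrays lay mostly in 1 array. Without replicate 3, 16 of the 57 genes were higher and 11 lower, against 3888 and 2947 of all 18417 genes. The median difference of the 57 was then 0.04 in place of 0.13. What set this array apart was not tested.

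**Figure D5:**
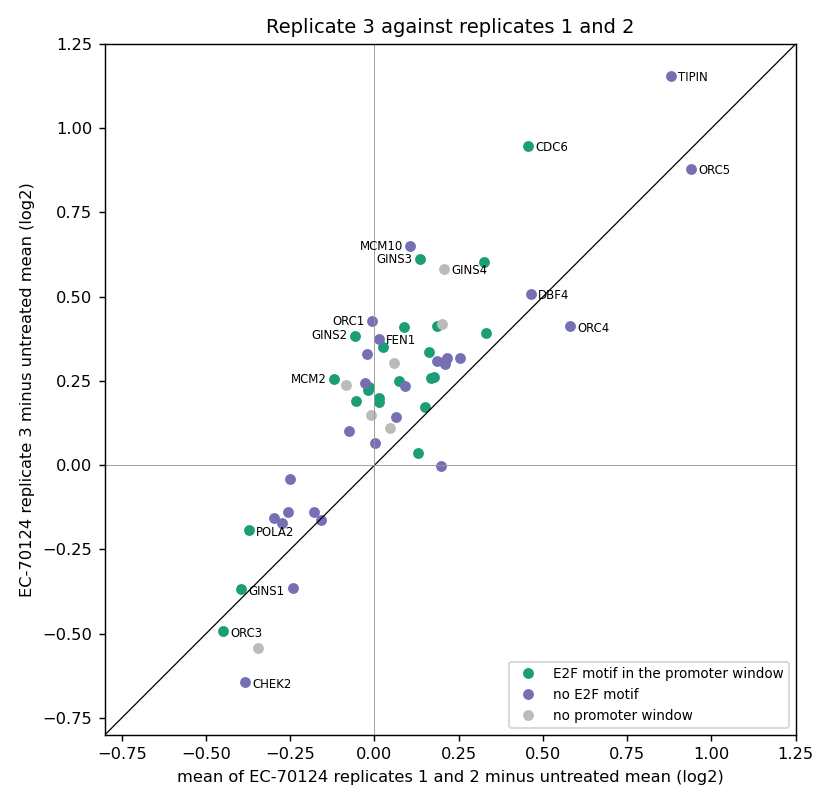
Log2 difference from the untreated mean in EC-70124 replicate 3 (vertical) against the mean of replicates 1 and 2 (horizontal) for the 57 genes, coloured by the E2F letters in the promoter window, with the line of equal values. Most points lie above the line, the median excess being 0.16, and MCM10, GINS3 and CDC6 lie far above it.

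Further genes of the same pathways were listed by function and counted in the same fit. Of 31 other replication factors, 6 rose and 1 fell (22.6% called, against 34.5% of all genes), with a median of 0.01. The largest changes were those of RNASEH2B (0.49, adjusted p = 0.000293) and RNASEH2C (0.46, adjusted p = 0.000317), subunits of the nuclease that removes ribonucleotides from DNA, and of MCM9 (0.49, adjusted p = 0.000575), the partner of MCM8. Of 19 other checkpoint factors, 3 rose and 5 fell (42.1%). HUS1, a subunit of the 9-1-1 clamp that works with TOPBP1, rose 1.91-fold (log2 fold change 0.93, SE 0.07, adjusted p = 3.59e-05), while HLTF, which remodels stalled forks, fell (-0.64, adjusted p = 0.000299), as did CDC25C (-0.45, adjusted p = 0.00268), the phosphatase that CHEK1 and CHEK2 restrain. Of 14 RB, DP and DREAM partners of E2F, 5 rose and 3 fell (57.1%), among them the DREAM subunit LIN37 (0.55, adjusted p = 0.00038), the E2F dimer partner TFDP2 (-0.75, adjusted p = 3.49e-05) and the RBL1 relative RBL2 (-0.54, adjusted p = 0.0149). Without untreated replicate 3 the adjusted p of RBL2 was 0.0514.

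Of 4 S-phase cyclins and their kinase, CCNE2 rose (0.91, adjusted p = 0.00381) and CDK2 (-0.40, adjusted p = 0.000484) and CCNA2 (-0.29, adjusted p = 0.00629) fell. Of 7 measured genes of deoxynucleotide supply, RRM2B (0.49, adjusted p = 0.00151), the p53-induced small subunit of ribonucleotide reductase, and TK1 (0.22, adjusted p = 0.0357) rose, and RRM1 (-0.20, adjusted p = 0.0234), the large subunit, fell. TK1 lost its call after quantile normalization (0.0667) and without any 1 array other than EC-70124 replicate 1 (0.0562 to 0.107), and RRM1 without any 1 array other than EC-70124 replicate 3 (0.0518 to 0.0856). The companion genes together, 75 measured, had 17 higher and 12 lower calls (38.7%, against 34.5% of all genes) and a median of 0.02. Without the dimmest 30% of genes the share called over genes was larger, with 3446 higher and 2702 lower of 12892.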

How the data were processed

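Total RNA of MDA-MB-231 cells was measured on 6 Affymetrix Human Gene ST arrays, 3 untreated and 3 with EC-70124 (500 nM, 24 h). The authors normalized the arrays with dChip by pair-wise rank-invariant probe selection and computed model-based expression indices, which were deposited as linear intensities. Its version is not given in the sources used here. Of all probe sets, the annotation gives 1 symbol for 19460 of 33252 probe sets, several for 1754 and none for 12038. The brightest single-symbol probe set was kept for each of 18417 genes, values below 1 were set to 1, and log2 intensities were tested with limma 3.58.1 (lmFit and eBayes, R 4.3.3), with Benjamini-Hochberg adjustment over all genes and a threshold of 0.05. The script was tested on simulated data.

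Genes and lists were chosen with earlier results of these data known. Values by array are given for the 12 largest changes past the threshold and the largest of each role, differences for all other genes past it and, for companion lists, for up to 3 genes. PCNA, MCM2, MCM10 and DBF4 were added after their values were seen. ATRIP (shared probe set) was not analysed here. Alternatives were quantile normalization, cyclic loess, median centring, leaving out the dimmest 30% of genes, adding 50 before the log2 transform, averaging the probe sets of a gene by their median, a trended robust variance, the methods' t-test with unequal variances, a replicate block and leaving out each array. The same alternatives were applied to the counts of the companion lists after the data had been seen.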

Additional observations from a re-analysis of the deposited data

How the results depend on the processing

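The 16 higher calls became 8 after quantile normalization, 10 after cyclic loess, 9 after centring each array on its median and 5 with the methods' t-test (unequal variances, Benjamini-Hochberg), and ranged from 9 to 16 when 1 array was left out. The 10 lower calls became 4 with the t-test and ranged from 5 to 11 when 1 array was left out. Calls lost were 11 without untreated replicate 1, 11 without untreated replicate 2, 8 without untreated replicate 3 and 7 without EC-70124 replicate 2. The 6 calls lost after cyclic loess and the 7 lost after centring were among the 8 lost after quantile normalization. Over all genes, the t-test called 1962 higher and 1280 lower, against 3631 and 2722. When 1 array was left out, the counts over all 18417 genes ranged from 2991 to 3888 higher and from 2133 to 2947 lower. Without untreated replicate 1, 9 of the 57 replication genes and 2991 of all genes were higher. The share of higher calls was then no larger among the replication genes. The companion lists went from 17 higher and 12 lower to 10 and 4 with the t-test, and ranged from 12 to 17 higher and from 8 to 15 lower when 1 array was left out. Of the 26 called replication genes, 7 (ORC3, ORC4, ORC5, GINS1, RFC2, TIPIN and RBL1) passed in all 15 alternatives, and no difference reversed while called. The cause of the lost calls was not tested.

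Replicate numbers were not taken to pair the samples. The deviations of arrays with the same number correlated at 0.127, -0.02 and 0.136, within the range of those with different numbers (-0.218 to 0.149). With the replicate block 15 replication genes were higher and 9 lower, against 3521 and 2662 of all genes. ATR (adjusted p = 0.0768), PRIM2 (0.0641), TOPBP1 (0.0525) and GINS4 (0.0508) lost their calls, and DBF4 (0.04) and RFC4 (0.035) gained one. A trended robust variance gave ATR 0.0558 and RFC4 0.0406. The table holds no background measure, so no limit from signal over background can be given.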
